A study of Mus musculus with 12 samples.

Results

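Scratch injury was compared with no injury in primary cultured mouse cortical neurons. The comparison set the 4 Trauma libraries, made 24 h after the culture was scratched and without added cytokine, against the 4 Control libraries from uninjured cultures. It covered the 15016 of 55901 genes in the deposited table whose mean over the 12 libraries of the series was at least 0.5 FPKM (fragments per kilobase of gene, scaled to sequencing depth, a level that allows for gene length). Every culture came from the cerebral cortex, without hippocampus, of C57BL/6J pups taken within 24 h of birth, was treated early with arabinosylcytosine, a DNA synthesis inhibitor used to limit glia, and was used between day 8 and day 10. The third group, 4 libraries from scratched cultures given 10 ng/ml TGF-β1, was not compared here. It entered the mean level by which genes were kept and sorted into level classes, the scaling and the estimate of the spread between libraries. Whether the medium of Control cultures was replaced when the Trauma cultures were scratched is not given in the sources used here. No label says that replicates came from separate cultures, so the p-values measure only the spread between these libraries, which may be technical.

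Dragging a needle through a culture cuts neurites and kills the cells in its path, while the cells beside the track survive. Surviving neurons are known to answer such an insult in waves: immediate early transcription factors such as Fos and Jun within minutes to hours, then secreted peptides and growth-associated proteins, and over the following days a change in the balance between synaptic function and repair. Glial cells near a wound become reactive, with more intermediate filament protein, and some of them divide.

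Of the 15016 genes, 874 (5.82%) changed at an adjusted p of at most 0.05 in limma, 526 (3.5%) upward and 348 (2.32%) downward, without a minimum fold change. Without Trauma replicate 2, 3 or 4 there were 540, 568 and 464 calls, with Control replicate 4 left out 224 of the calls were downward, and a fit of the 8 libraries alone gave 529. Upregulated genes changed by more: their median log2 fold change was 0.50 in size against 0.25 for downregulated genes, and 65 of them rose at least 2-fold against 10 that fell as far. Downregulated genes lay higher, with a median level of 17.7 FPKM against 5.13 for upregulated genes and 5.15 for all genes tested. The 4 Trauma values lay wholly above or below the 4 Control values for 1944 genes (12.9%), 939 higher and 1005 lower, and for 492 of the upregulated and 343 of the downregulated genes. Genes named below for the largest changes were picked from those without overlap, so its absence is no further support for them. The balance of direction moved with corrections made for composition: 60.2% of the calls were upward, 47.5% (474 up, 523 down) after a correction for gene length and 39.1% (488 up, 760 down) after one for GC content. Since the RNA is from whole cultures, a change in the number of cells of a type and a change in the RNA of each cell cannot be told apart in any result below.

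Control replicate 1 stood apart from the other libraries. It had reads on 22124 genes against 23362 to 24413 in the other 7 libraries compared, 2.97% of its reads on mitochondrial genes against 2.12 to 2.36%, and a score of -61.7 on the first principal component of the 8 libraries against -1.60 to 20.8. Without it, 490 genes rose (3.26%) and 347 fell (2.31%), and 671 of the 874 genes were called again in the same direction. Counts for gene groups are therefore given without it as well wherever they differ. The 8 libraries held 15477690 to 17381671 reads on genes.

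Calls were spread unevenly over expression level, a description that was not tested. Among the 2218 genes at 0.5 to under 1 FPKM, 1.8% passed, 34 up and 6 down. Among the 313 genes at 100 FPKM or more, 13.1% passed, 10 up and 31 down. Between these ends the share of calls that were upward went down step by step, from 87.4% at 1 to under 2 FPKM through 64.4% at 5 to under 10 FPKM to 32.6% at 20 to under 50 FPKM. The median log2 fold change of all genes, called or not, went from 0.090 in the lowest class to -0.033 in the highest. Precision changed along the same axis, with a median standard error of 0.31 in the lowest class and 0.049 in the highest, so that a called gene had to change by more when it was rare: the median upregulated gene rose by 0.92 on the log2 scale in the lowest class and 0.34 in the highest. Without Control replicate 1 the lowest class held 31 up and 2 down, and the highest 11 up and 29 down. The class at 10 to under 20 FPKM held 92 up and 72 down, but 90 up and 117 down in limma's voom fit of the recovered reads.

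**Figure D1:**
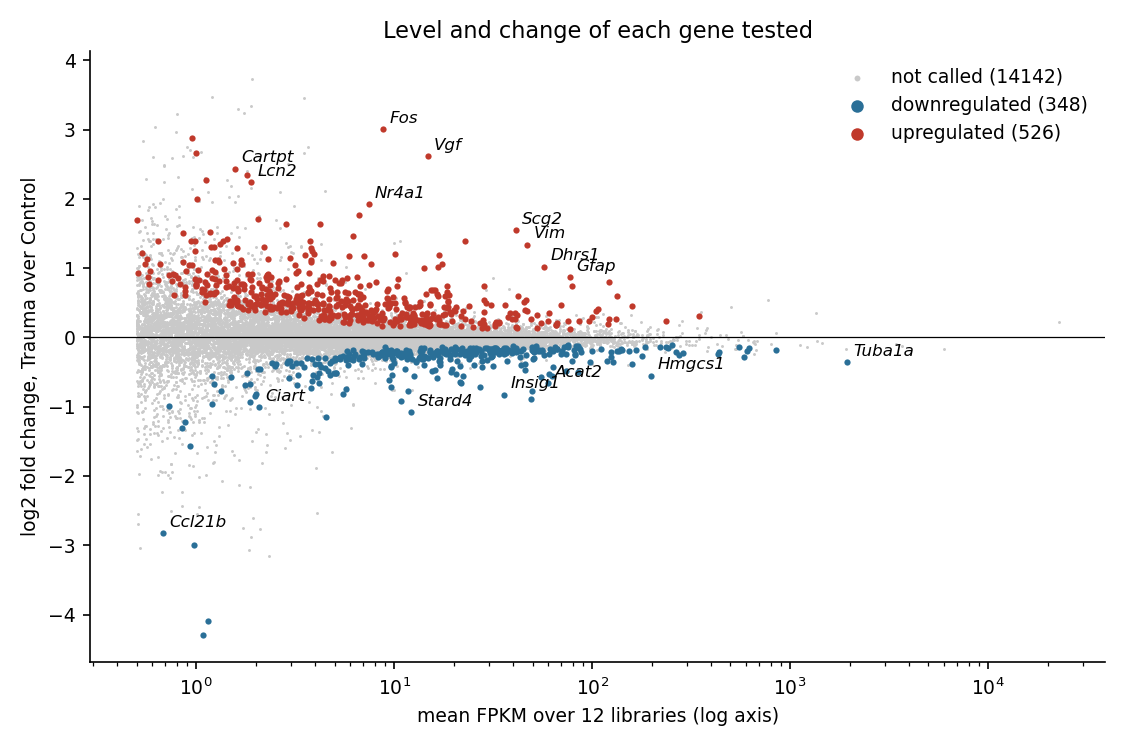
Log2 fold change (Trauma minus Control, vertical axis) of the 15016 genes tested against their mean FPKM over the 12 libraries (horizontal log axis), with upregulated and downregulated genes coloured. The 526 upregulated genes spread to large changes at low levels, and the 348 downregulated genes sit mostly at higher levels with small changes.

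**Figure D2:**
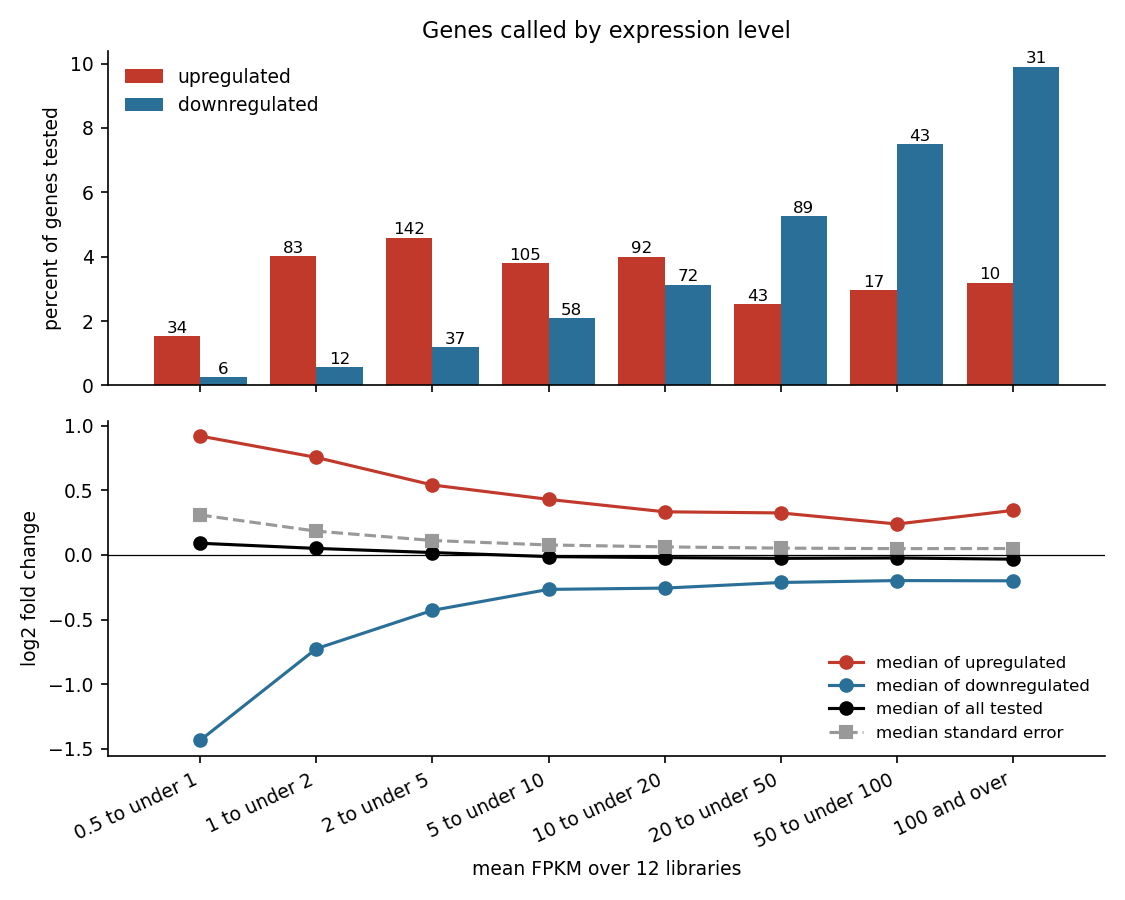
Percent of genes tested that were called upward and downward in 8 classes of mean FPKM, with the number of genes printed at each bar. A lower panel gives the median log2 fold changes and the median standard error of each class. Upward calls outnumber downward calls in each class below 20 FPKM, and downward calls outnumber upward ones in each class from 20 FPKM.

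In units of FPKM the losses outweighed the gains. Summed over the genes called, mean FPKM changed by 1914 among upregulated and by -3246 among downregulated genes, and Tuba1a, an α-tubulin of growing neurons, made up 15.3% of the latter. The upregulated genes took 2.07 to 2.14% of the reads in Control libraries and 2.69 to 2.93% in Trauma libraries, the downregulated genes 8.35 to 8.48% and 7.12 to 7.42%. These shares describe the genes that the test chose and are no further test.

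Most calls were protein-coding genes, with 509 up and 316 down of 12078 tested (6.83%). Long noncoding RNA genes gave 10 up and 11 down of 921 (2.28%) and processed pseudogenes 2 up and 6 down of 866 (0.924%). The difference between these classes was not tested, and the classes differ in level. To describe the response by function, 47 lists of genes were used, which together held 1511 of the tested genes and 247 of the 874 called. The median log2 fold change over all tested genes was -0.0025, but it moved with level. It was 0.050 at 1 to under 2 FPKM, -0.021 at 10 to under 20 FPKM and -0.027 at 20 to under 50 FPKM. Each list median below is to be read against the median of all genes at a like level. Counts cover tested members only: below the filter were 16 of 47 S-phase and mitosis genes, 15 of 76 matrix genes, 23 of 54 interferon and inflammatory genes, 11 of 25 microglia and complement genes, 10 of 22 oligodendrocyte lineage genes and 13 of 18 endothelial and mural genes, and at most 8 in any other list. Of the 526 upregulated genes 25 had a Control mean under 0.5 FPKM and were kept only because scratched groups were higher. Their calls carry no weight as support for a list: 3 were in the S-phase and mitosis list. The immediate early, neuropeptide, p53, apoptosis and matrix lists held 1 each. Of the downregulated genes, 7 had a Trauma mean under 0.5 FPKM and were kept only because other groups were higher.

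Immediate early genes, which code for transcription factors and effectors switched on within minutes of neuronal activity or injury, were higher in the scratched cultures at 24 h. Of 25 tested, 11 rose and none fell, with a list median of 0.93 (9 rose and none fell without Control replicate 1). Fos (chr12:85473890-85477273 in mm10, plus strand), a subunit of the AP-1 transcription factor, was at 1.55, 1.05, 1.3 and 1.63 FPKM in the Control and 5.71, 5.99, 23.4 and 22.5 FPKM in the Trauma libraries. The groups did not overlap, and within Trauma replicates 3 and 4 were far above replicates 1 and 2. Its log2 fold change was 3.01 ± 0.52 (SE, adjusted p = 0.0056 in limma). Nr4a1, an orphan nuclear receptor, was divided in the same way, at 2.56 to 2.92 FPKM in Control and 7.36, 5.57, 19.5 and 16.3 FPKM in Trauma (log2 fold change 1.92 ± 0.41, adjusted p = 0.017, and 0.060 without Trauma replicate 4). The zinc finger factor Egr1, outside the rule for named genes and picked after its values were seen, was at 4.2, 3.97, 5.60 and 5.18 FPKM in Control and 6.68, 5.45, 26.9 and 23.5 FPKM in Trauma. With that spread its log2 fold change of 1.39 ± 0.58 did not pass in this fit (adjusted p = 0.21).

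Other members of the same list were even across the 4 Trauma libraries. Jun (chr4:95049034-95052222, minus strand), the partner of Fos in AP-1 and a regulator of axon regeneration, was at 8.46 to 9.29 FPKM in Control and 17.1, 17.3, 18.5 and 19.1 FPKM in Trauma. Nr4a3, a receptor of the Nr4a family, was at 3.38, 3.02, 2.59 and 2.81 FPKM in Control and 7.89, 7.57, 8.84 and 8.62 FPKM in Trauma (log2 fold change 1.46 ± 0.089, adjusted p = 4.2e-06). Neither gene's groups overlapped, and the spread within Trauma was small beside the difference. Nr4a2 lay between these patterns, at 0.623 to 0.913 FPKM in Control and 1.53, 1.27, 2.23 and 2.45 FPKM in Trauma.

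Higher values in Trauma replicates 3 and 4 were also seen in Dusp1, Ccn1 and Btg2, of which Btg2 is on the immediate early list. Dusp1, a phosphatase that switches off MAP kinases, was at 1.90 to 2.32 FPKM in Control and 3.67, 3.83, 6.73 and 6.72 FPKM in Trauma (log2 fold change 1.25 ± 0.22, adjusted p = 0.0064). Ccn1, a matrix-associated signalling protein, was at 6.34 to 8.42 FPKM in Control and 11.5, 13.7, 20.5 and 20.1 FPKM in Trauma. In Btg2, an antiproliferative p53 target, the Trauma values were 2.22, 1.88, 4.39 and 3.98 FPKM against 0.806 to 1.44 FPKM in Control (adjusted p = 0.021, and up to 0.074 without Control replicate 1, Trauma replicate 3 or Trauma replicate 4). Each of these genes was higher in every Trauma library than in any Control library, and higher in Trauma replicates 3 and 4 than in 1 and 2. The labels give no date or batch by which the replicates could be divided.

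**Figure D3:**
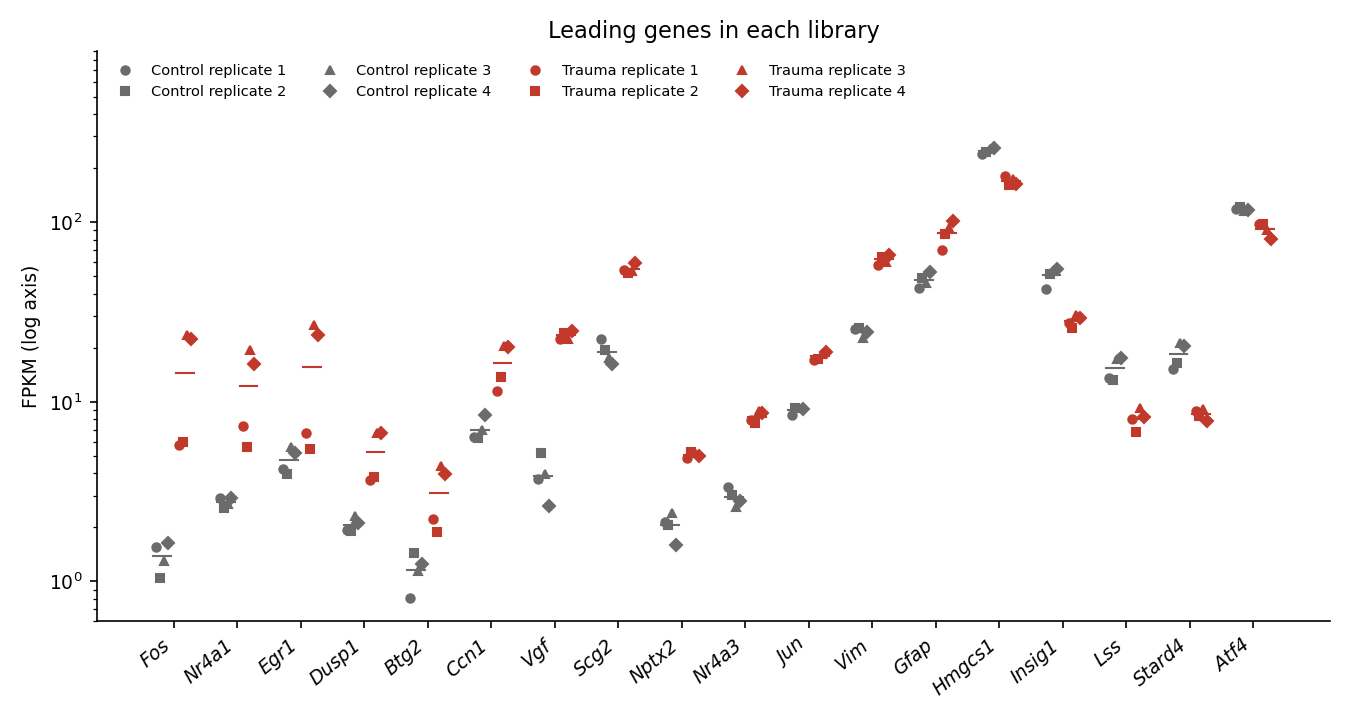
FPKM (log axis) in each Control and Trauma library for leading genes of the response, 1 point per library. Fos and Nr4a1 split within the Trauma group, while Vgf, Scg2, Jun and Vim are even across the Trauma libraries and the sterol synthesis genes are lower in all 4 Trauma libraries.

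The ERK pathway carries growth factor and activity signals to these early genes and is restrained by phosphatases and Sprouty-related proteins that it induces itself. Of 19 such feedback genes, 8 rose and none fell (median 0.29, with 7 and none without Control replicate 1). Spred3, a Sprouty-related inhibitor of ERK signalling, was at 2.33, 2.13, 2.21 and 2.17 FPKM in Control and 5.11, 4.48, 4.40 and 5.63 FPKM in Trauma, with no overlap (log2 fold change 1.12 ± 0.097). The phosphatases Dusp4 and Dusp5 rose by 1.07 ± 0.16 and 1.11 ± 0.18 on the log2 scale.

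Among secreted and activity-dependent neuronal genes the calls were all upward. Of 22 tested, 12 were upregulated, none downregulated and 10 not called (median 0.49), with the same counts when Control replicate 1 was left out. Vgf (chr5:137026392-137033351, plus strand), a nerve growth factor-inducible granin precursor of neuropeptides, was at 3.69, 5.18, 3.98 and 2.64 FPKM in Control and 22.5, 24.2, 22.3 and 24.7 FPKM in Trauma. Scg2, the secretogranin II of dense-core vesicles, was at 22.3, 19.3, 17.6 and 16.3 FPKM in Control and 54.2, 52.4, 53.2 and 59.0 FPKM in Trauma (log2 fold change 1.55 ± 0.085, adjusted p = 2.5e-06). Both genes separated the groups widely, and neither showed the split within Trauma that Fos did.

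Cartpt, precursor of the CART neuropeptide, was at 0.713, 0.138, 0.448 and 0.508 FPKM in Control and 2.14, 1.75, 2.79 and 4.45 FPKM in Trauma. Nptx2, a pentraxin that clusters AMPA receptors, was at 1.59 to 2.41 FPKM in Control and 4.89 to 5.27 FPKM in Trauma (log2 fold change 1.29 ± 0.12, adjusted p = 8.5e-05). The groups were apart in both. With a Control mean of 0.452 FPKM, Cartpt reached the filter of 0.5 FPKM only through scratched groups, so its call carries no weight as support for the list. Npy, the neuropeptide Y of a class of inhibitory neurons, went from 32.5 ± 2.32 to 48.8 ± 4.89 FPKM (SD, n = 4 in each group).

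Promoters of these genes were read for the palindrome TGACGTCA, the full cAMP response element bound by CREB-family factors, in the 250 bases before each RefSeq gene start (GRCm38.p6 tables, either strand). Of the 15009 symbols tested, 9984 matched. The letters were present in 1.77% of the 27025 promoters listed and in 3.17% of those of tested genes, in 15 of 404 upregulated genes (3.71%) and in 3 of 245 downregulated genes (1.22%). They were present in 4 of 15 genes of the neuropeptide list (Cartpt, Scg2, Sst and Chgb) and in 2 of 19 immediate early genes (Btg2 and Maff). The sites of 4 upregulated genes are shown because they are the stretches that these genes share, 5′ to 3′ on the gene's strand with the element in capitals. Each match is a description of letters and not of a bound site. Distances are from the RefSeq start. The deposited gene start lies 94, 408 and 114 bases further upstream for Scg2, Cartpt and Sst, so their sites lie inside the deposited gene. For Btg2 it lies 35 bases downstream.
Scg2 (chr1:79440076-79440105, minus strand, 68 bases before the start): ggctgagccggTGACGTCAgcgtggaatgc
Cartpt (chr13:99900777-99900806, minus strand, 112 bases before): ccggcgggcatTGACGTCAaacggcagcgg
Sst (chr16:23890874-23890903, minus strand, 48 bases before): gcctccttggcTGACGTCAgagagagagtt
Btg2 (chr1:134079303-134079332, minus strand, 166 bases before): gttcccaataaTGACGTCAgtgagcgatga
Of these 4, Sst, the somatostatin precursor, had the smallest change, from 49.8 to 66.8 FPKM in Control to 70.9 to 89.5 FPKM in Trauma, and its call (adjusted p = 0.023) was lost without Control replicate 3 or 4 or Trauma replicate 2 or 4 (up to 0.072).

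Genes of sterol synthesis fell together. This pathway makes cholesterol from acetyl-CoA and is controlled as a unit by the SREBP transcription factors, which are held back when membranes are rich in sterol. Of 24 genes tested, 21 fell and none rose, with a median of -0.58 (22 and none without Control replicate 1). The called changes ran from -0.18 for Srebf2, the factor itself, to -1.08 for Stard4, a cytosolic sterol carrier. The call of Srebf2 (adjusted p = 0.018) was lost without Control replicate 3 or 4 or Trauma replicate 3 or 4 (up to 0.058). The 3 members that did not pass, named like Srebf2 after their values were seen, were Tm7sf2 (-0.48), Ebp (-0.08) and Pmvk (0.03).

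Enzymes along the whole route were lower. At its entry, Hmgcs1 (chr13:119690379-119708260, plus strand), which makes HMG-CoA, was at 240, 246, 255 and 260 FPKM in Control and 181, 161, 175 and 162 FPKM in Trauma (log2 fold change -0.55 ± 0.043, adjusted p = 3e-05). At its branch point Fdft1, the squalene synthase, was at 80.0, 75.0, 79.6 and 78.4 FPKM in Control and 55.0, 54.4, 50.3 and 51.2 FPKM in Trauma. Further on, Lss, which closes the ring to give lanosterol, was at 13.5, 13.1, 17.2 and 17.6 FPKM in Control and 7.98, 6.75, 9.18 and 8.24 FPKM in Trauma. In each of the 3 genes all Trauma libraries were below all Control libraries. Fdps, which makes farnesyl diphosphate, fell by 0.94 on the log2 scale, but its reads can be shared with several near-identical pseudogenes. Cyp51, which removes a methyl group of lanosterol, fell by 0.47 and Hsd17b7 of the later steps by 0.72.

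Genes that sense and carry sterol fell with the enzymes. Insig1, the sterol-responsive anchor of the SREBP complex, was at 42.6, 51.4, 53.3 and 55.1 FPKM in Control and 27.3, 25.9, 30.5 and 29.2 FPKM in Trauma (log2 fold change -0.83 ± 0.090). Stard4 was at 15.3, 16.5, 21.3 and 20.5 FPKM in Control and 8.89, 8.35, 9.13 and 7.79 FPKM in Trauma. Control replicates 1 and 2 were below replicates 3 and 4 for both genes, and the groups did not overlap.

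The fatty acid branch moved the same way by less, with 10 of 13 genes down and none up (median -0.34, the same counts without Control replicate 1). Acly, which makes cytosolic acetyl-CoA for both branches, was at 96.0, 104, 114 and 115 FPKM in Control and 74.1 to 75.8 FPKM in Trauma. Fasn, the fatty acid synthase, was at 148, 146, 154 and 149 FPKM in Control and 121, 117, 114 and 110 FPKM in Trauma, and Acaca, the acetyl-CoA carboxylase, fell by 0.39 on the log2 scale. The groups did not overlap in any of the 3. Of 16 lipoprotein and cholesterol efflux genes, whose products export sterol, 3 rose and none fell: among them the transporter Abca1 went from 9.80 ± 0.561 to 13.2 ± 0.975 FPKM and the apolipoprotein Clu from 39.9 ± 1.66 to 51.6 ± 3.29 FPKM (SD, n = 4).

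Promoters of the sterol genes were read in the same 250-base window for CCAAT, the box bound by NF-Y, a factor that works beside SREBP, on either strand. The box was present in 37.5% of all promoters and 40.5% of those of tested genes, in 16 of the 17 sterol synthesis genes with a promoter in the table, in 6 of 10 fatty acid genes, in 117 of 245 downregulated genes (47.8%) and in 176 of 404 upregulated genes (43.6%). It was also present in 24 of 27 S-phase and mitosis genes, a list with upward calls. The letters TCACCCCAC, a form of the sterol regulatory element, were present in 0.555% of all promoters and in 1 of the 17, Hmgcs1. Of the promoters below, Hmgcs1 has 3 boxes, 237, 176 and 45 bases before the RefSeq start, and Lss has 1, 62 bases before it. They are shown as a promoter with 3 boxes and a promoter with 1. The stretches are on the plus strand up to the RefSeq start or, for Lss, the deposited gene start. Capitals mark the box as read from its other strand (ATTGG).
Hmgcs1 (chr13:119690101-119690350): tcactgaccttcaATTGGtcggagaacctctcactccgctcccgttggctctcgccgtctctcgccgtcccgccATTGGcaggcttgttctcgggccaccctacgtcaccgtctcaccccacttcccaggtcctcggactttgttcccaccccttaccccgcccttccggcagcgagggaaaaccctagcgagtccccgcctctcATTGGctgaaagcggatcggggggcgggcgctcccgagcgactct
Lss (chr10:76531355-76531587): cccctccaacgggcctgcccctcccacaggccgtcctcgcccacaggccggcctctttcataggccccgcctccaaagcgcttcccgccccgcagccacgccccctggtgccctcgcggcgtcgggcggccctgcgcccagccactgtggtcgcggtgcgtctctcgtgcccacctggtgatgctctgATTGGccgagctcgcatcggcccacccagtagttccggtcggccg

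Of 22 astrocyte genes 15 rose and none fell (median 0.36, 13 and none without Control replicate 1). Vim, the intermediate filament vimentin of astrocytes, progenitors and mesenchymal cells, had the smallest adjusted p of all 15016 genes. It was at 25.3, 25.9, 22.7 and 24.6 FPKM in Control and 57.7, 64.3, 60.3 and 65.9 FPKM in Trauma (log2 fold change 1.34 ± 0.060, adjusted p = 6.1e-07). Gfap, the filament that defines reactive astrocytes, was at 43.1, 49.0, 45.9 and 52.6 FPKM in Control and 69.9, 85.7, 92.4 and 101 FPKM in Trauma (log2 fold change 0.87 ± 0.097). For both genes every Trauma library was above every Control library. Glul, the glutamine synthetase, went from 105 ± 9.25 to 138 ± 5.92 FPKM (SD, n = 4). Aqp4, the astrocyte water channel, went from 11 ± 0.637 to 17.1 ± 1.28 FPKM (SD, n = 4). Their log2 fold changes, 0.41 ± 0.056 and 0.63 ± 0.073 (SE), were smaller than those of Vim and Gfap, a difference that was not tested.

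The cultures held RNA of glia as well as neurons in both groups, and the sums of fixed marker sets differed between them. Summed FPKM of 8 astrocyte markers was 206 to 236 in Control and 263 to 324 in Trauma, with 6 markers up. For 6 neuronal markers the sum was 1257 to 1318 in Control and 1111 to 1189 in Trauma, with 2 down and 1 up, most of it Tubb3, a tubulin described below. The excitatory markers summed to 166 to 178 and 178 to 187 FPKM with none of 6 called, and the inhibitory markers to 206 to 222 and 230 to 251 FPKM with 2 of 7 up. Microglial markers (10, of which 6 could be tested and 3 rose) summed to 23.9 to 28.8 FPKM in Control and 35.5 to 45.4 FPKM in Trauma, and oligodendrocyte lineage markers (8, of which 5 could be tested and 2 rose) to 46.3 to 49.1 and 57.5 to 64.7 FPKM. Mural and fibroblast markers (7, of which 3 could be tested and 1 rose) summed to 3.83 to 4.42 FPKM in Control and 6.43 to 8.29 FPKM in Trauma. The sums were 25.3 to 35.7 and 39.0 to 42.6 FPKM for 5 neural progenitor markers, of which 1 rose, and 4.27 to 7.55 and 7.89 to 11.3 FPKM for 3 ependymal markers, of which 1 could be tested and rose. The part of these shifts in the other results was not tested. Defining markers of endothelium were near 0, with Pecam1 at 0.0999 to 0.217 FPKM over the 8 libraries and none of 5 markers at the level tested, and the oligodendrocyte factor Sox10 was at 0.0852 to 0.371 FPKM.

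**Figure D4:**
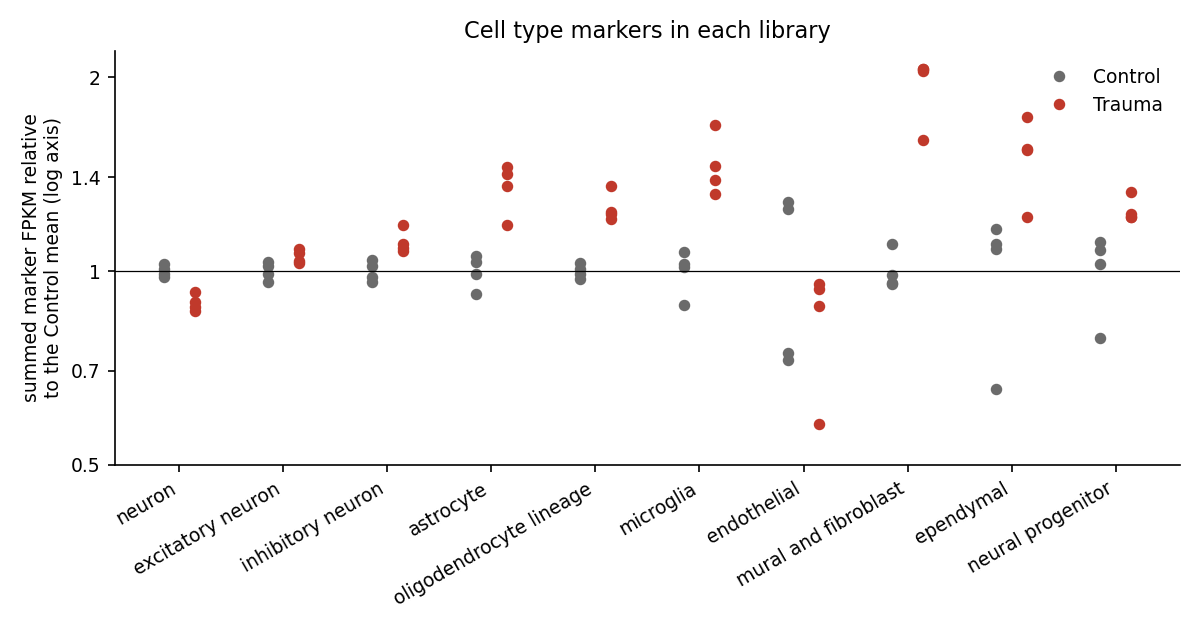
Summed FPKM of each fixed marker set relative to its Control mean (log axis) in each Control and Trauma library. The glial, mural, ependymal, progenitor and inhibitory neuron sets are higher in the Trauma libraries. The set of general neuronal markers, most of it Tubb3, is lower. The excitatory neuron set overlaps narrowly between the groups, with most Trauma libraries higher. The endothelial set, whose sums were under 0.5 FPKM, overlaps between the groups.

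The labelled cell type had its defining transcripts at high levels. The dendritic protein Map2 was at 119, 102, 97.4 and 104 FPKM in Control and 104, 104, 103 and 99.3 FPKM in Trauma, with overlapping groups (adjusted p = 0.84). Slc17a7, the vesicular glutamate transporter of cortical excitatory neurons, was at 66.0 ± 4.82 and 65.8 ± 1.64 FPKM (SD, n = 4, adjusted p = 0.97 in limma). For neither gene was a difference detected at this depth. Gad1, the defining marker of inhibitory neurons, rose from 29.3 to 29.8 FPKM in Control to 31.0 to 35.8 FPKM in Trauma. Its log2 fold change was 0.20 (adjusted p = 0.020 in limma). The call was lost without Control replicate 4 or Trauma replicate 3 or 4 (up to 0.071).

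In the smaller glial and mural lists the calls were upward in part. In the microglia and complement list 6 of 14 rose and none fell (median 0.44), but 2 and none without Control replicate 1 and 3 and none after the correction for GC content. C1qb, a chain of complement C1q, went from 6.65 to 8.07 FPKM in Control to 9.44, 12.2, 9.67 and 16.4 FPKM in Trauma (adjusted p = 0.017, and 0.050 without Trauma replicate 2), while the microglial receptor Cx3cr1, at 1.18 to 1.50 against 1.58 to 1.73 FPKM, did not pass (adjusted p = 0.10). In the oligodendrocyte lineage list 3 of 12 rose, among them the precursor factor Olig1 at 24.7 ± 1.48 against 34.0 ± 3.34 FPKM and the myelin protein Mbp at 5.05 ± 0.407 against 6.88 ± 0.390 FPKM (SD, n = 4). Of 5 endothelial and mural genes tested, 2 rose, the contractile genes Acta2, at 1.01, 1.55, 1.3 and 1.65 FPKM in Control and 3.82, 4.23, 5.00 and 4.66 FPKM in Trauma, and Myl9 (log2 fold change 1.63 ± 0.17). Each named gene here was higher in every Trauma library than in any Control library.

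Matrix genes were called upward in part. Of 61 collagen, laminin, integrin and protease genes, 15 were up and none down (median 0.22, 15 up and 2 down without Control replicate 1). Col6a1, a chain of collagen VI, was at 1.78, 2.18, 1.54 and 1.13 FPKM in Control and 3.10, 2.76, 3.27 and 2.90 FPKM in Trauma (log2 fold change 0.87 ± 0.16, adjusted p = 0.0094). Ccn2, the connective tissue growth factor, was at 1.66 to 2.15 FPKM in Control and 3.41 to 3.63 FPKM in Trauma. Both were above Control in all 4 Trauma libraries. Anxa2 and Cd109, membrane-associated proteins outside the list, rose by 1.13 ± 0.094 and 1.14 ± 0.087 on the log2 scale, and Lgals1, the secreted lectin galectin-1, by 1.76 ± 0.30.

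Genes of DNA replication and mitosis were at low levels, and part of them rose. Of 31 tested, 15 were up and none down (median 0.45), with the same counts without Control replicate 1. Mki67, a marker of cycling cells, was at 0.310, 0.222, 0.228 and 0.245 FPKM in Control and 0.725, 0.877, 0.843 and 0.832 FPKM in Trauma. Top2a, the topoisomerase of dividing cells, was at 0.501 to 0.699 FPKM in Control and 1.38, 1.68, 1.90 and 2.11 FPKM in Trauma (log2 fold change 1.4 ± 0.15, adjusted p = 0.00022). Uhrf1, which keeps DNA methylation through replication, was at 0.198 to 0.497 FPKM in Control and 1.4 to 1.75 FPKM in Trauma. These levels are a small fraction of the 119 FPKM that Map2 reached, and in none of the 3 genes did the groups overlap. Mki67 and Uhrf1, with Control means of 0.251 and 0.339 FPKM, reached the filter of 0.5 FPKM only through scratched groups, as did 3 of the 15 upregulated genes of the list in all, so that their passing the test carries no weight as support for the list. Mature neurons do not divide. The progenitor, glial and mural marker sums given above were higher in the same libraries, and their part in this result was not tested.

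Of 23 regulators of the G1 phase, 5 rose and none fell (median 0.043). They were of both kinds: Ccnd1, the cyclin D1 that drives entry into the cycle, went from 4.5 ± 0.715 to 8.11 ± 0.783 FPKM, and the inhibitors Cdkn2c and Cdkn1a from 0.827 ± 0.069 to 1.88 ± 0.317 FPKM and from 7.90 ± 1.00 to 11.7 ± 0.705 FPKM (SD, n = 4). In the Notch list 4 of 20 rose, among them the receptor Notch1 by 0.66 ± 0.091 on the log2 scale, and none fell. In the list of TGF-β and BMP pathway genes 3 of 39 rose and 3 fell, with 3 and none without Control replicate 1. Id3, a BMP-induced inhibitor of differentiation that is also in the astrocyte list, was at 1.81, 3.09, 2.73 and 2.46 FPKM in Control and 5.09, 5.18, 5.59 and 5.65 FPKM in Trauma.

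**Figure D5:**
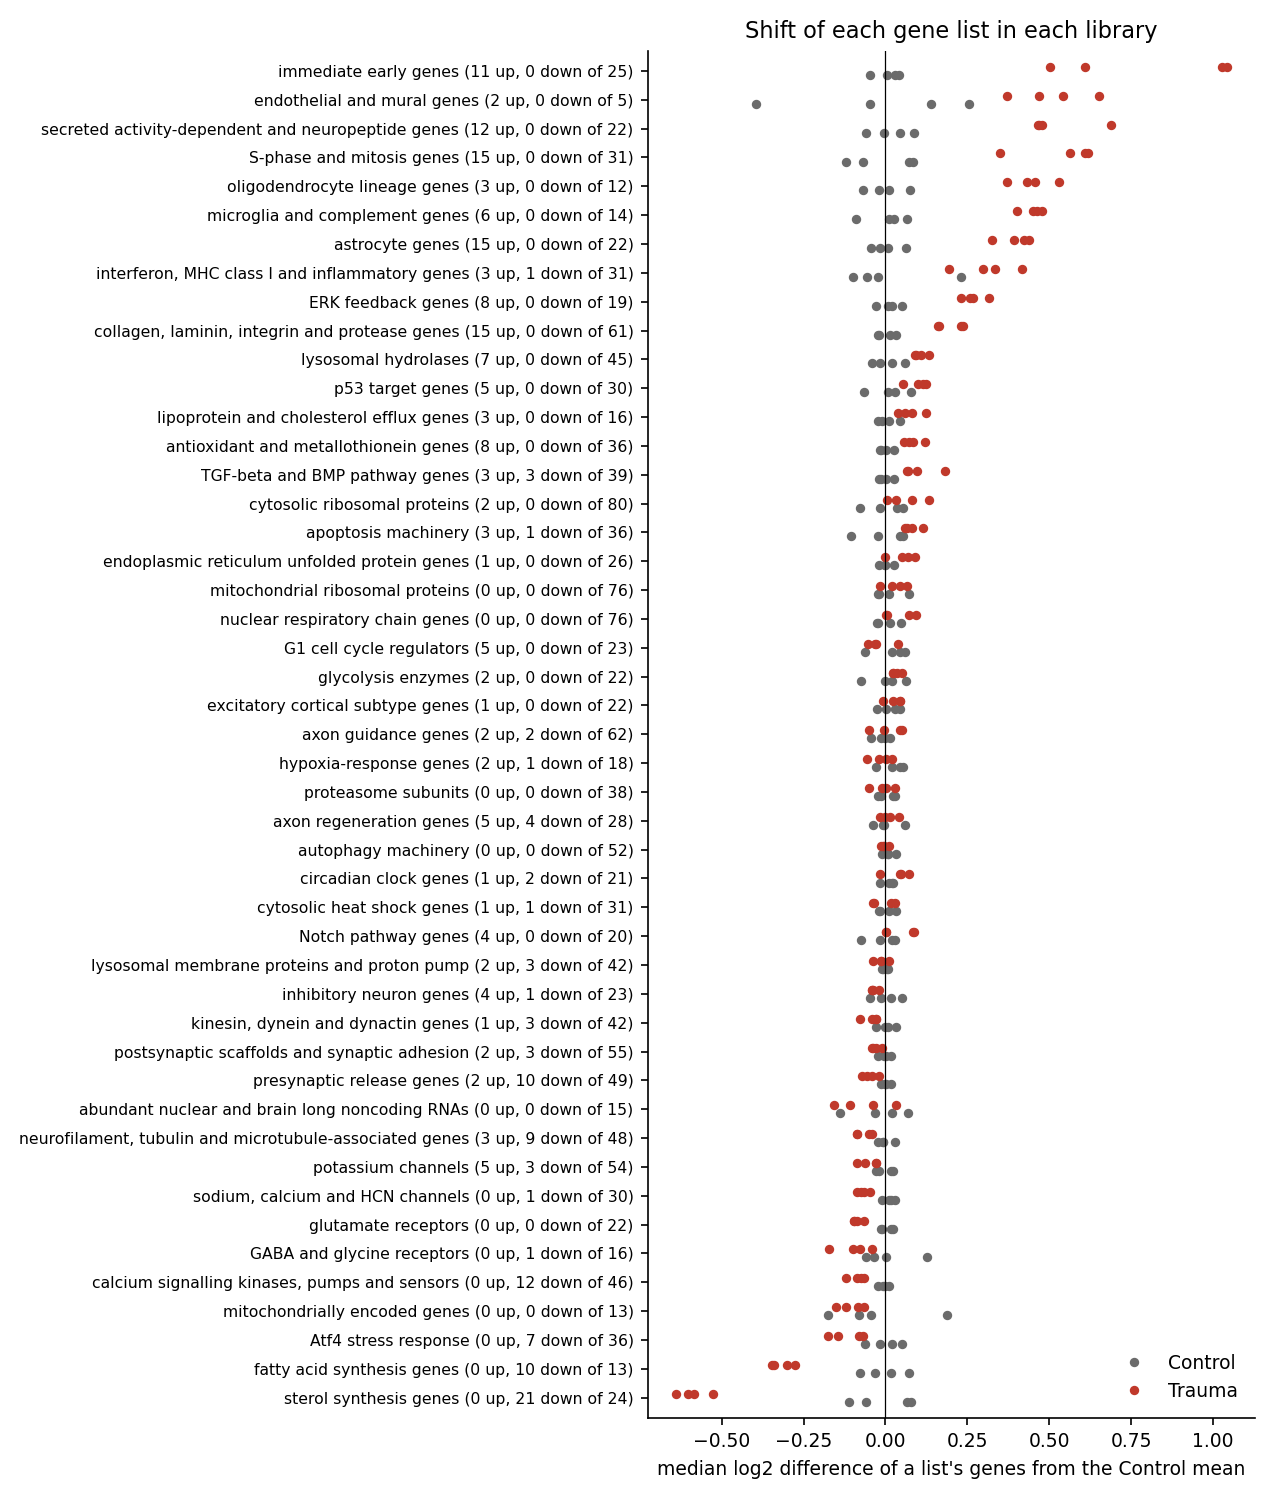
Median log2 difference from the Control mean over the tested genes of each list, 1 point per library. The immediate early, neuropeptide, glial, matrix and S-phase lists lie above 0 in the 4 Trauma libraries and the sterol and fatty acid lists below 0, while most of the remaining lists stay near 0 in both groups.

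Neuronal structure and synapse genes changed by little and mostly downward. So did all genes at the levels of the tubulin and presynaptic lists, whose median levels were 63.5 and 34.2 FPKM. At 20 to under 50 FPKM the median of all genes was -0.027, with 43 up and 89 down (7.79% called). At 50 to under 100 FPKM it was -0.024, with 17 up and 43 down (10.5% called). The part of level in these lists was not tested. Among 48 neurofilament, tubulin and microtubule-associated genes 3 rose and 9 fell (median -0.057, 2 and 9 without Control replicate 1). Tuba1a (chr15:98949837-98953703, minus strand) was at 2388, 2192, 2078 and 2190 FPKM in Control and 1841, 1756, 1681 and 1581 FPKM in Trauma. No Trauma library reached the lowest Control value, and its log2 fold change was -0.36 ± 0.058 (adjusted p = 0.0039, but 0.31 after quantile normalization). The gene has a near-identical neighbour, Tuba1b, with which reads may be shared. The neuronal β-tubulin Tubb3 went from 960 ± 31.4 to 842 ± 28.4 FPKM (SD, n = 4), and its call was lost without Control replicate 3 or without Trauma replicate 2, 3 or 4 (adjusted p up to 0.072) and after quantile normalization (0.32). Tubb6, a minor β-tubulin, rose instead, from 3.73 to 4.46 FPKM in Control to 5.80 to 7.96 FPKM in Trauma.

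Of 49 presynaptic release genes 2 rose and 10 fell (median -0.048, 4 and 9 without Control replicate 1). Syt1, the calcium sensor of fast release, was at 92.2, 90.2, 86.0 and 92.2 FPKM in Control and 78.3, 73.1, 76.0 and 71.7 FPKM in Trauma (log2 fold change -0.26 ± 0.040, adjusted p = 0.0026). Rims3, an active-zone protein, was at 19.5, 20.5, 20.7 and 21.8 FPKM in Control and 16.7, 15.6, 15.3 and 14.7 FPKM in Trauma. The groups were apart in both genes. Cplx2, a complexin that clamps fusion, fell by 0.21 ± 0.043 on the log2 scale.

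Calcium signalling genes gave 12 down and none up of 46 (median -0.091, 10 down and 1 up without Control replicate 1). Among them the neuronal calcium sensor Ncald was at 25.6, 27.3, 27.6 and 29.0 FPKM in Control and 21.8, 21.8, 23.9 and 21.6 FPKM in Trauma (adjusted p = 0.019, and up to 0.063 without Control replicate 4, Trauma replicate 2 or Trauma replicate 4). Cpne4, a calcium-dependent membrane-binding protein outside the list, was at 22.6 to 24.8 FPKM in Control and 15.4 to 17.4 FPKM in Trauma (log2 fold change -0.49 ± 0.049, adjusted p = 0.00013). Both were lower in every Trauma library than in any Control library.

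Receptor and channel genes were read in 4 lists. Of 22 glutamate receptor genes none passed in limma, though 1 higher and 6 lower had an unadjusted p under 0.05 and 3 fell in limma's voom fit of the recovered reads (2 fell without Control replicate 1). Of 16 GABA and glycine receptor genes 1 fell. Among 54 potassium channel genes 5 rose and 3 fell (14.8%), with 2 and 4 without Control replicate 1 and 3 and 8 after the correction for GC content. Kcnf1, a silent subunit that modifies other channels, was at 15.3, 18.5, 14.5 and 15.2 FPKM in Control and 20.2 to 22.8 FPKM in Trauma, and Kcnc1, the Kv3.1 channel of fast-spiking neurons, was at 17.2 to 17.8 and 14.3 to 15 FPKM. These moved in opposite directions and neither overlapped. Of 30 sodium, calcium and HCN channel genes 1 fell (2 without Control replicate 1), and of 55 postsynaptic scaffold and adhesion genes 2 rose and 3 fell (1 and 2 without it). The correction for GC content gave more downward calls in these neuronal lists, among them 19 of 48 neurofilament, tubulin and microtubule-associated genes, 14 of 49 presynaptic, 9 of 55 postsynaptic and 18 of 46 calcium signalling genes. Slc1a6, a neuronal glutamate transporter, fell by 0.74 ± 0.12 on the log2 scale.

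Genes linked to axon regeneration did not move as a group, with 5 up and 4 down of 28 (median -0.0024, 5 and 3 without Control replicate 1). Csrp1, a LIM-domain protein, was at 11.1, 14.4, 13.5 and 13.3 FPKM in Control and 18.9, 20.2, 21.6 and 22.4 FPKM in Trauma. Stat3, which carries cytokine signals back from an injured axon, was at 6.06 to 6.86 FPKM in Control and 7.08 to 8.22 FPKM in Trauma (log2 fold change 0.30 ± 0.059, adjusted p = 0.011). Both rose without overlap. Stmn2, a tubulin-binding protein of growth cones, was at 311, 277, 274 and 283 FPKM in Control and 254, 252, 250 and 229 FPKM in Trauma (adjusted p = 0.021, 0.065 without Trauma replicate 4 and 0.20 after quantile normalization). Of 62 axon guidance genes 2 rose and 2 fell (1 and 1 without Control replicate 1). Of 42 kinesin, dynein and dynactin genes 1 rose and 3 fell, or 1 and 9 after the correction for GC content.

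Stress pathways differed in direction. The Atf4 list, the amino acid response and integrated stress response genes, had 7 down and none up of 36 (median -0.13, 5 and none without Control replicate 1). Atf4 itself, the transcription factor, was at 118, 121, 116 and 117 FPKM in Control and 97.1, 98.2, 90.6 and 80.9 FPKM in Trauma (log2 fold change -0.36 ± 0.066, adjusted p = 0.0082). Mthfd2, its mitochondrial folate enzyme target, was at 10.8 to 13.4 FPKM in Control and 7.30 to 9.14 FPKM in Trauma. Both were lower in all Trauma libraries. In the antioxidant and metallothionein list 8 of 36 rose and none fell (median 0.079, the same counts without Control replicate 1). The metallothionein Mt1, a zinc and copper buffer, was at 103, 76.5, 71.0 and 73.3 FPKM in Control and 116, 143, 144 and 155 FPKM in Trauma, and the peroxidase Prdx6 was at 21.0 to 23.7 and 34.5 to 39.0 FPKM (log2 fold change 0.74 ± 0.058, adjusted p = 3e-05). Mt1 and its neighbour Mt2 are similar enough that their reads may be shared. Of 26 unfolded protein genes of the endoplasmic reticulum 1 rose, and of 31 cytosolic heat shock genes 1 rose and 1 fell (1 and none without Control replicate 1).

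Among p53 targets 5 of 30 rose and none fell, with 3 up and 1 down without Control replicate 1. Besides Cdkn1a and Btg2 these included Ephx1, the microsomal epoxide hydrolase, at 13.5 to 15.5 FPKM in Control and 20.2 to 24.1 FPKM in Trauma, and the death receptor Fas. With a Control mean of 0.433 FPKM, Fas reached the filter of 0.5 FPKM only through scratched groups, so its call carries no weight as support for this list or the next. Among 36 genes of the apoptosis machinery 3 rose and 1 fell (4 and 1 without Control replicate 1). Tnfrsf1a, a TNF receptor, rose from 5.24 ± 0.574 to 7.25 ± 0.549 FPKM (SD, n = 4).

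Autophagy genes were not detectably changed in RNA: none of 52 passed in either direction in limma (median -0.0072). An unadjusted p under 0.05 was found for 1 higher and 4 lower genes, limma's voom fit of the recovered reads called 1 up, and the correction for GC content 3 down. Becn1, of the complex that starts the autophagosome, was at 8.69, 9.68, 9.23 and 8.29 FPKM in Control and 8.72, 8.67, 9.23 and 9.12 FPKM in Trauma (adjusted p = 0.98). The receptor Sqstm1 was at 113 to 138 FPKM in Control and 121 to 127 FPKM in Trauma (adjusted p = 0.72). In both the Trauma values lay within the Control range. Lysosomal hydrolases, which digest what autophagy delivers, had 7 up and none down of 45 (median 0.10, 6 and none without Control replicate 1). Ctsd, the protease cathepsin D, was at 83.4, 86.7, 83.3 and 89.4 FPKM in Control and 102, 99.4, 97.5 and 101 FPKM in Trauma (log2 fold change 0.23 ± 0.044, adjusted p = 0.010). Of 42 lysosomal membrane genes 2 rose and 3 fell, with Lamp1 at 97 to 106 and 103 to 109 FPKM (adjusted p = 0.22) and the tetraspanin Cd63 up by 0.30 ± 0.056 on the log2 scale. Microglia and astrocytes are rich in lysosomal hydrolases as well, and their marker sums were higher in the same libraries. The part of these cells in the lysosomal calls was not tested. Of 38 proteasome genes none passed in limma, with 1 lower at an unadjusted p under 0.05 and 1 down in the voom fit.

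Genes of energy metabolism and translation gave few calls. No gene passed in limma among 76 nuclear respiratory chain genes (median 0.049), 76 mitochondrial ribosomal proteins (median 0.049) or 13 mitochondrially encoded protein genes (median -0.095). An unadjusted p under 0.05 was found for 9 higher and 1 lower of the respiratory chain genes, 7 higher and 2 lower of the ribosomal ones and 0 of the mitochondrially encoded ones, and the voom fit called 1 gene of the 3 lists, upward. Outside the last list, the mitochondrial ribosomal RNA mt-Rnr1, chosen after its values were seen, was at 733, 611, 564 and 628 FPKM in Control and 496, 524, 541 and 498 FPKM in Trauma. It fell without overlap (log2 fold change -0.29 ± 0.071, adjusted p = 0.036), and the call was lost without Control replicate 2 or 4 or any 1 Trauma library (up to 0.10). The mitochondrial transfer RNA mt-Ts2, chosen in the same way, was at 77.1, 47.8, 60.4 and 46.2 FPKM in Control and 27.8, 46.6, 31.6 and 21.0 FPKM in Trauma, with overlap (adjusted p = 0.029, up to 0.078 without Control replicate 1 or 3 or Trauma replicate 1, 3 or 4). Of 80 cytosolic ribosomal proteins 2 rose (median 0.069), with 11 higher at an unadjusted p under 0.05 and 6 up in the voom fit. Of 22 glycolysis genes 2 rose, among them the lactate transporter Slc16a1, at 4.04 to 4.82 FPKM in Control and 5.75 to 6.58 FPKM in Trauma. In the hypoxia list of 18 genes 2 rose and 1 fell. In the interferon, MHC class I and inflammatory list 3 of 31 rose and 1 fell, with 7 and 1 without Control replicate 1. Of these Lcn2, a secreted iron-binding protein of reactive glia, was at 0.942, 0.605, 0.461 and 0.371 FPKM in Control and 2.71, 2.56, 3.47 and 3.43 FPKM in Trauma (log2 fold change 2.24 ± 0.22), and Stat2, which relays interferon signals, fell from 6.02 ± 0.672 to 4.15 ± 0.190 FPKM (SD, n = 4).

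Of 15 abundant noncoding RNA genes none passed in limma, with 3 lower at an unadjusted p under 0.05, 1 up and 1 down in the voom fit and 1 down without Control replicate 1. In the excitatory subtype list 1 of 22 rose (2 without Control replicate 1), and in the inhibitory list 4 of 23 rose and 1 fell (3 and 4 without Control replicate 1). In the circadian list 1 of 21 rose and 2 fell, among them Ciart, a repressor of the clock, at 2.68 to 3.68 FPKM in Control and 1.32 to 1.83 FPKM in Trauma (log2 fold change -1.0 ± 0.19).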

How the data were processed

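Libraries were made from poly(A) RNA of 12 samples in 3 groups of 4, grouped by their titles. Per the submitters' processing notes, the authors aligned reads with HISAT2 2.0.5 to mm10, and the methods name featureCounts for counting. The deposited table gives FPKM per gene, with gene length, coordinates and biotype beside it. In the deposited FPKM values whole reads could be recovered for 100% of genes (tolerance 0.05 reads), and all 12 libraries had been put on a common median-of-ratios scale. How multiply mapped reads were treated is not given in the sources used here.

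FPKM was divided by a median-of-ratios factor over the tested genes (0.999 to 1.01), and log2(FPKM + 0.1) was fitted in limma 3.58.1 (R 4.3.3) over all 12 libraries with a mean-variance trend. Genes with a mean of at least 0.5 FPKM were kept, and p-values were adjusted by Benjamini-Hochberg over all 15016. Levels are the deposited FPKM, and fold changes are on the log2(FPKM + 0.1) scale, which understates those of low genes. The deposited file gives no other comparison, and no column of values was left out. The methods describe DESeq2 for the authors' own comparison, which was not used here. The fit was also run on simulated data, with the same variability set for all genes and no outlying library. Those data differ from the real libraries in both respects, so that run is no support for the calls.

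Genes and lists were chosen with earlier results of these data known. Named genes were the called genes with the largest changes, those with the smallest p in each level class, up to 4 called genes per list and direction, the 5 genes of the study's RT-qPCR panel and defining cell markers. Alternatives were other pseudocounts, filters and normalizations, 8 libraries alone, a replicate block, voom on recovered reads, corrections for gene length and, added after seeing the data, for GC content of GENCODE transcripts (14699 genes), and each library left out. Promoter sequences are those of RefSeq on GRCm38.p6. Some genes are not reported here.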

Additional observations from a re-analysis of the deposited data

Results flagged for a closer look

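Of 372 sets of 4 values examined (genes named, list and marker sums and library measures), 14 held 1 library whose gap to the nearest other exceeded Dixon's critical value at the 95% level. Chance alone gives about 1 in 20. Of the 14, 5 were in Trauma replicate 4 and 2 each in Trauma replicates 1 and 2 and Control replicate 1.

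Among genes, Hist1h4h was at 5.37 FPKM in Trauma replicate 2 and 2.27 to 2.46 FPKM in the other Trauma libraries, and as a histone gene it has near-identical copies with which reads may be shared. The small RNA gene Gm22571 was at 3.63 FPKM in Control replicate 3 against 0.840 to 0.928 FPKM, and at 0.803 FPKM in Trauma replicate 4 against 0 in the other 3, from 1 to 4 reads in each library where it was seen. Its call (adjusted p = 0.027 in limma) was lost without Control replicate 3 or 4 or Trauma replicate 1, 2 or 3 (up to 0.080). Fas was at 0.284 FPKM in Control replicate 1 against 0.472 to 0.494 FPKM. Ctsb, the cathepsin B gene, was at 77.4 FPKM in Control replicate 2 against 71.6 to 72.4 FPKM. Its call (log2 fold change 0.12, adjusted p = 0.046) was lost when any library but Control replicate 2 was left out (up to 0.12). Olig1 was at 39.0 FPKM in Trauma replicate 2 against 31.9 to 32.7 FPKM, Stmn2 at 229 FPKM in Trauma replicate 4 against 250 to 254 FPKM, and Ncald at 23.9 FPKM in Trauma replicate 3 against 21.6 to 21.8 FPKM.

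Among sums and library measures, Trauma replicate 1 held 16335960 reads on genes against 17262211 to 17339554 in the other Trauma libraries. Its mural and fibroblast markers summed to 6.43 FPKM against 8.21 to 8.29 FPKM. The ependymal markers summed to 4.27 FPKM in Control replicate 1 against 7.03 to 7.55 FPKM, and the neural progenitor markers to 42.6 FPKM in Trauma replicate 4 against 39.0 to 39.4 FPKM. In Trauma replicate 4 the median log2 difference from the Control mean was 0.687 over the neuropeptide list against 0.466 to 0.477, and -0.0193 over the inhibitory neuron list against -0.0403 to -0.0376. What sets these values apart was not tested.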

How the results depend on the processing

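The 874 calls (526 up, 348 down) became 562 (202 down) with no filter on low values, 529 (337 up, 192 down) in a fit of the 8 libraries alone, 75 (65 up, 10 down) when a 2-fold change was asked for, and 464 to 837 (310 to 490 up, 154 to 347 down) with 1 library left out, lowest without Trauma replicate 4. Downward calls rose to 529 in voom, 523 after the length correction and 760 after the GC correction, and GC with replicate block gave 1345 calls (845 down). The replicate block alone gave 781 calls (476 up, 305 down). Deviations of same-numbered Control and Trauma libraries correlated at 0.0090, 0.039, 0.00038 and -0.0088, and not every library correlated best with its own number. The samples were therefore not paired number by number. Correlations ran from 0.0090 to 0.039 among replicates 1 and 2, and from -0.0088 to 0.061 among replicates 3 and 4. Between replicates 1 or 2 of either group and 3 or 4 of the other, all were negative, from -0.043 to -0.0085. Whether both groups share a division by replicate number was not tested. With the block Egr1 passed (adjusted p = 0.038, and 0.035 and 0.037 with the GC and length corrections). Of 114 called genes named, 85 passed under each of 21 alternatives at most and 0 reversed. Of the 10 named genes that did not pass, 4 changed sign. The log2 fold change of Becn1 was -0.0040 on the deposited scale, -0.0055 in voom, -0.0039 with the length correction, with or without the block, -0.010 with GC, with or without the block, and -0.031 to 0.041 with 1 library left out. That of Slc17a7 was -0.0035, -0.0050, -0.012 and -0.055 in the same order and -0.026 to 0.046 with 1 library left out. Pmvk went to -0.020 (length, with or without the block), -0.029 (GC, with or without the block) and -0.11 without Control replicate 1 (to 0.093 without Control replicate 2), and Map2 to 0.033 without Control replicate 1 (to -0.064 without Control replicate 3). The medians of 12 of 47 lists changed sign under some alternative, 0 of them among the 14 lists with a median of at least 0.1 in size. In the lowest level class the median gene had 23.3 reads, which limits what could pass there.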

Other observations

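Of the 874 genes called, 627 were in none of the 47 lists, and some of the most abundant genes to rise were among them. Dhrs1, a short-chain dehydrogenase of the endoplasmic reticulum, was at 34.9, 38.8, 35.8 and 34.1 FPKM in Control and 63.7, 73.8, 76.1 and 76.7 FPKM in Trauma (log2 fold change 1.02 ± 0.059, adjusted p = 2.9e-06 in limma). Igfbp2, a binding protein for insulin-like growth factors, was at 95.7, 109, 100.5 and 97.8 FPKM in Control and 144, 160, 142 and 163 FPKM in Trauma. The groups were far apart in both genes. Fabp7, the fatty acid binding protein of radial glia and astrocytes, and Cst3, the secreted protease inhibitor cystatin C, were chosen after their values were seen. Fabp7 went from 138 ± 8.98 to 188 ± 17.1 FPKM and Cst3 from 310 ± 12.6 to 382 ± 32.8 FPKM (SD, n = 4), with no overlap in either.

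At the low end, Ccl21b, which codes for a chemokine of lymphoid tissue and has near-identical copies in the mouse genome with which reads may be shared, was at 0.673, 1.02, 1.83 and 1.34 FPKM in Control and 0.140, 0.0660, 0.130 and 0 FPKM in Trauma. The groups did not overlap. Its Trauma mean of 0.084 FPKM was under the filter of 0.5 FPKM, which the gene passed only through the other groups.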
